A study of Mus musculus with 2 samples.

Results

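Antigen presentation by the major histocompatibility complex (MHC) was followed through 10 genes in mouse liver after adenovirus infection. They were chosen as a list of peptide loading genes and MHC class I and class II genes: B2m, H2-D1, H2-K1, Tap1, Tap2, Tapbp, H2-Aa, H2-Ab1, Cd74 and Ciita. All 10 were on the array, among 18193 named genes, and they were read by 33 of 45037 probe sets, a probe set being a group of short probes for 1 transcript.

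Each of the 2 groups was C57BL/6J mice aged 2 months, sampled 3 days after 1000000000 plaque-forming units of adenovirus given into the tail vein. The Ad-control group had 4 mice with the empty vector, and the Ad-PDK4 group had 3 mice with the vector for PDK4, a kinase that switches off the pyruvate dehydrogenase complex. Both groups carried an adenovirus, and no uninfected liver was analysed here, so the arrays cannot show what infection itself did to these genes. RNA of each group was combined, and 10 ug of each pool was labelled for 1 array. There is thus 1 value per group, the spread between mice is unknown, and no difference has a test.

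Almost every nucleated cell, hepatocytes included, displays MHC class I molecules, which carry peptides made in its own cytosol to CD8 T cells. Each is a heavy chain (H2-K1 or H2-D1 in these mice) paired with beta-2-microglobulin (B2m), and it is filled in the endoplasmic reticulum with peptides that the transporter of Tap1 and Tap2 brings in, with the help of tapasin (Tapbp). Class II molecules (H2-Aa with H2-Ab1) carry peptides from endosomes to CD4 T cells, are guided by the invariant chain (Cd74), depend on the transactivator Ciita, and in liver are known chiefly from Kupffer cells, dendritic cells, B cells and sinusoidal endothelium.

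The control regions of these genes hold shared boxes, and the stretches below show how close the class I genes are to each other there. They are RefSeq sequences of assembly GRCm38.p6, found for 6 of the 10 genes (B2m, Tapbp, H2-K1, Tap1, H2-Aa and H2-D1). H2-Q10, a class I gene of liver whose product is secreted, is added for comparison. Capitals mark 4 motifs searched on both strands, without regard to overlap: GGGATTCCC (a kappaB site), TTTCACTTC (an interferon response element), TGACG (the core of the X2 box) and ATTGG (the core of the Y box). Each stretch is 150 bases upstream of an annotated start, written in the direction of transcription. It runs from base 150 to base 1 before the start for H2-K1, and from base 180 to base 31 for H2-D1, H2-Q10, B2m and H2-Aa.
H2-K1, chr17:34000348-34000497, minus strand: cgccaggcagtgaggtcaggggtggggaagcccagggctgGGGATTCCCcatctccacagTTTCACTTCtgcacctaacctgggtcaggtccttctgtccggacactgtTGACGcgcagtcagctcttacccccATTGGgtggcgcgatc
H2-D1, chr17:35262914-35263063, plus strand: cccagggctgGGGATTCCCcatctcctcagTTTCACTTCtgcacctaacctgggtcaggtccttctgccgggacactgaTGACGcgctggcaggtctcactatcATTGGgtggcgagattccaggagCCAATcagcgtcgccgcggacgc
H2-Q10, chr17:35469909-35470058, plus strand: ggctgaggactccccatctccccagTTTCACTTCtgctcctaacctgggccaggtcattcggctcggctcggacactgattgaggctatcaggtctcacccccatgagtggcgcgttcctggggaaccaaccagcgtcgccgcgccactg
B2m, chr2:122147507-122147656, plus strand: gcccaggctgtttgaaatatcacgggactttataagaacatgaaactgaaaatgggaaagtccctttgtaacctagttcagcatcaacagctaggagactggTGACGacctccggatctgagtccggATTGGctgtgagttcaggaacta
H2-Aa, chr17:34287854-34288003, minus strand: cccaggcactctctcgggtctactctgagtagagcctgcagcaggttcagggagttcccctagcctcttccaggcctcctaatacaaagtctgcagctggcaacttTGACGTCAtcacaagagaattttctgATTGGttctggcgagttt

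H2-K1 and H2-D1 were identical at 161 of 177 aligned bases of their upstream sequence (91.0%), and both held all 4 motifs. Of 32851 upstream sequences of 250 bases, which include several starts of some genes, 0.30% held the kappaB letters, 0.40% the interferon element, 17.8% the X2 core and 33.8% the Y core. B2m, Tap1 and H2-Aa held the X2 and Y cores, Tapbp held the Y core alone, and H2-Q10 held only the interferon element. These matches are letters in a window and show no binding.

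None (0) of the 9 measured genes differed by 1.5-fold or more between the pools on its brightest probe set. The difference used is the log2 signal on the Ad-PDK4 array minus the log2 signal of the control, centred on the median probe set, and each gene is represented by its brightest probe set. Of the 10 genes, 9 were above a floor on both arrays, set at the 50th percentile of the probe sets of each (signals of 93.4 and 99.9), and Ciita was under it on both. Another H2-Ab1 probe set fell under the Ad-PDK4 floor and, set against that floor, was at least 2.56-fold lower (-1.36). The 9 lay between -0.24 (Tapbp) and 0.53 (Tap2), 7 below 0 and 2 above, with a median of -0.038. That split changed under other processing choices, given below. Of the 10389 named genes measured on both arrays, 5031 lay below 0 and 5358 above, and their median was 0.015. Of the 12191 genes above the floor on at least 1 array, 11.0% passed 1.5-fold upwards in the Ad-PDK4 pool and 5.58% passed it downwards. Applied to 9 genes, those shares would give 0.99 higher and 0.50 lower, so a count of 0 in each direction is near the background. Fewer cells of a type and less RNA per cell cannot be told apart in such pools.

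**Figure D1:**
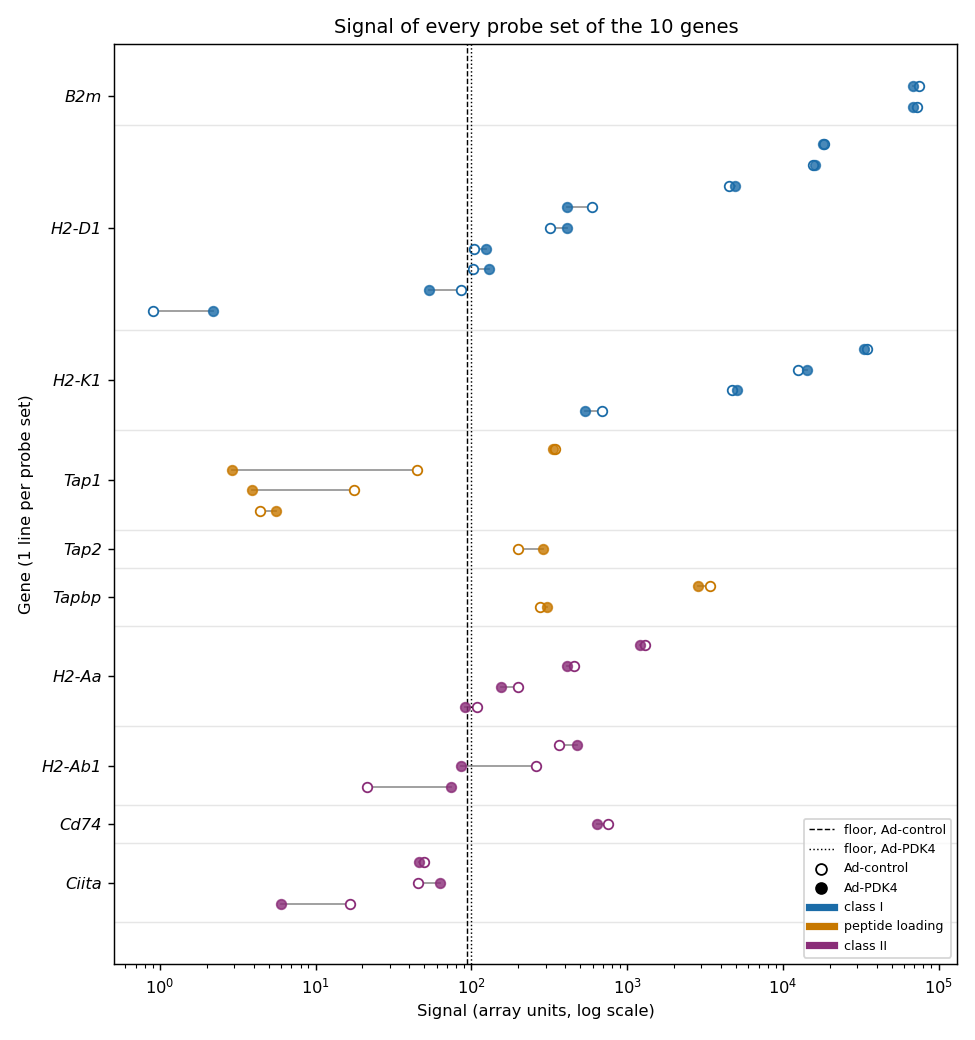
Signal (array units, log axis) of all 33 probe sets of the 10 genes, with 1 line per probe set joining the Ad-control array (open) and the Ad-PDK4 array (filled). The vertical lines are the floors of 93.4 and 99.9. The bright probe sets of B2m, H2-D1 and H2-K1 have nearly the same signal on both arrays. Long lines appear for dim probe sets of Tap1, H2-Ab1, Ciita and H2-D1.

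As an error scale within these arrays, probe sets of the same gene disagreed with a pooled SD of 0.35 on the log2 scale over 4326 genes that had several measured probe sets. This scale leaves out error shared by a whole array and the variation between mice. It also ignores brightness. Among the 500 measured probe sets nearest in signal, the SD of the differences ran from 0.21 (for B2m) to 0.58 (for a dim H2-Aa probe set), real differences included. The single Pdk4 probe set read 234 in the Ad-control pool against 177 in the Ad-PDK4 pool (-0.39), so the arrays do not show the overexpression. Whether that probe set reads the vector's transcript is unknown here, and the pools are called by their labels. All 10 measured exocrine pancreas markers were higher in the Ad-PDK4 pool, by log2 differences from 2.47 (Cela1, an elastase) to 3.68 (Reg2), and their summed signal was 10134.5 and 81781. The part of this tissue in the values below was not tested. The median of all measured genes moved to 0.56 when the arrays were centred on the poly-A spike-in controls and to 0.27 with the hybridization controls. Under either of these scalings all 9 measured genes lay above 0, so the signs below hold only relative to the rest of each array.

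The class I light chain B2m had almost the same, very bright signal in both pools. Its 2 probe sets gave 75036 and 72837 with the empty vector, and 68165 and 68237 in the Ad-PDK4 pool, which are log2 differences of -0.12 and -0.080. They differed from each other by 0.044, and 94.8% of the genes with several measured probe sets had a range at least as wide. Among the 500 measured probe sets closest in mean signal to the brighter one, 56.0% lay at least as far from 0. The sign of B2m changed with loess centring (0.0050) and with quantile normalization (0.022).

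The heavy chain gene H2-D1 had 9 probe sets, with signals from 0.90 to 18376.5 on the Ad-control array. The 3 brightest gave 18376.5, 15517 and 4504 in the Ad-control pool, against 18037.5, 16020 and 4929.5 in the Ad-PDK4 pool. Their log2 differences were -0.012, 0.061 and 0.14, all smaller than the pooled probe set SD. The dimmer ones did not share a direction: 594 against 414 gave -0.51, whereas 320.5 against 408 gave 0.36. A further pair, 104 against 125 and 102 against 130, gave 0.28 and 0.37 at signals close to the floor, and the last pair was under the floor on both arrays. In all, 5 measured H2-D1 probe sets were higher and 2 lower in the Ad-PDK4 pool, a range of 0.87, and 14.5% of genes with several measured probe sets had one at least as wide. Of the 9, 7 were of the _x_at kind, whose probes can match transcripts of other genes. The 2 that were not were the probe set at 320.5 on the Ad-control array and one at 0.90 against 2.2, so the value of H2-D1 without shared kinds (0.36) rests on 1 dim probe set.

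For H2-K1, the other classical heavy chain gene of this strain, the brighter probe sets again lay nearer 0 than the dimmest. Its 4 probe sets were all of the _x_at kind and gave 34577, 12440, 4697 and 693 on the Ad-control array. The Ad-PDK4 pool gave 33335, 14364, 5084 and 539, which are log2 differences of -0.038, 0.22, 0.13 and -0.35. The brightest and the dimmest were lower in the Ad-PDK4 pool and the middle pair higher, so the sign of H2-K1 is not settled by its probe sets. Its median over probe sets was 0.045. For H2-D1 the median over probe sets was 0.14, on the other side of 0 from its brightest one. Loess centring and quantile normalization also put both genes above 0 (0.071 and 0.096 for H2-D1, 0.066 and 0.025 for H2-K1), as did the floor at the 70th percentile for H2-D1 (0.0029).

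For these 3 class I chains, the probe sets with an Ad-control signal of at least 1000 (a split chosen after the signals were seen) numbered 8 and lay between -0.12 and 0.22, with an SD of 0.12. The 5 dimmer measured ones lay between -0.51 and 0.37, with an SD of 0.42. Over all measured probe sets the SD was 0.34 at or above that signal and 0.51 below it, and these SDs also hold real differences between the pools. At or above it, 3635 of all 6215 measured probe sets lay below 0, beside 4 of the 8 of these chains. Under it, 6440 of 13936 did. Signs of bright probe sets thus tilted downwards across the whole array. A probe set annotated to H2-K1 and H2-D1 together, which cannot be assigned to either, gave 4109 and 3912, a difference of -0.057. Another, shared by H2-K1 and H2-Q5, gave 161 in the Ad-control pool and 25.5 in the Ad-PDK4 pool, the latter under its floor. Set against that floor, it was lower by a bound of -0.67, past 1.5-fold. A further one, shared by H2-D1, H2-Q2 and Gm38417, was under both floors (59.2 and 20.7). These shared probe sets are not counted among those of the chains.

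**Figure D2:**
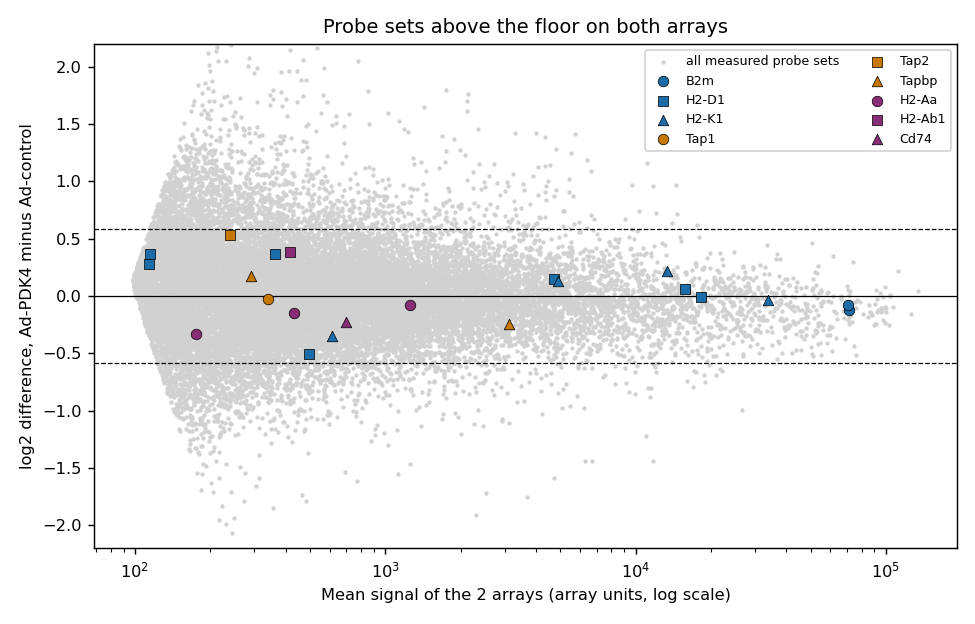
Log2 difference (Ad-PDK4 minus Ad-control) against the mean signal of the 2 arrays (array units, log axis) for probe sets above the floor on both. Grey points are all 20151 such probe sets, of which 74 lie beyond the plotted limit of 2.2, coloured points are the 22 of the MHC genes, and dashed lines mark 1.5-fold. Every coloured point lies between the dashed lines, and those of H2-D1 and H2-K1 spread more at low signal.

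The peptide loading genes gave no common direction. Tap2, a subunit of the peptide transporter, had the highest difference of the 10 genes, with a signal of 201 in the Ad-control pool and 287 in the other (0.53, 1.44-fold). That value comes from a single dim probe set, and 28.2% of the 500 probe sets closest in signal lay at least as far from 0. Tap1, the partner subunit, had 346 and 336 on its only measured probe set, a difference of -0.028. Its other 3 probe sets were under the floor on both arrays, with signals from 2.9 to 44.6, and have no difference. The 2 subunits of 1 transporter thus stood 1.44-fold and 1.02-fold from equality on 1 measured probe set each, with a gap that was not tested.

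Tapbp, which encodes tapasin, the chaperone that holds the empty class I molecule at the transporter, had the lowest difference of the measured genes as reported (Cd74 was lower under loess centring, quantile normalization and the median over probe sets). Its brighter probe set gave 3428 in the Ad-control pool against 2864 (-0.24), and the other gave 275 and 308 (0.18). Both are of the plain kind made for 1 gene, yet they lay on opposite sides of 0, and 46.9% of genes with several measured probe sets had a range as wide as this one (0.42). The median over both was -0.034. In RefSeq gene order Tap1 and Tap2 alternate with the immunoproteasome subunit genes Psmb9 and Psmb8 on chromosome 17. Along that order Psmb9 differed by -0.43, Tap1 by -0.028, Psmb8 by 0.26 and Tap2 by 0.53, values on both sides of 0.

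The class II chain genes were measured at lower signals, and H2-Ab1 had probe sets that disagreed by more than those of any other of the 10 genes. H2-Aa, the alpha chain, gave 1300 on its brightest probe set in the Ad-control pool and 1218 in the Ad-PDK4 pool, a difference of -0.079. Its other measured probe sets gave 458 against 409 (-0.15) and 198 against 156 (-0.33). The fourth, 109 against 90.4, fell under the floor of the Ad-PDK4 array and was at least 1.08-fold lower by its bound. The 3 measured on both arrays thus had a lower signal in the pool labelled Ad-PDK4. The fourth lay under 128, the background reached by the untranscribed gene H2-Ea described below. None was shown to be 1.5-fold lower, and all 4 are of kinds that can match several transcripts.

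H2-Ab1, the beta chain that pairs with H2-Aa, had 1 probe set at 368 and 474 (0.38) and another at 259 and 85.6. The latter lay under the Ad-PDK4 floor and was at least 2.56-fold lower there, a bound of -1.36. It was the only 1 of the 24 measured probe sets of the 10 genes that passed 1.5-fold, against 10.6% higher and 7.06% lower among all 24896 probe sets measured on at least 1 array. The third H2-Ab1 probe set went from 21.5 to 73.7, under the floor on both. The probe set that was higher is of the _s_at kind, shared between transcripts, and the one that was lower is of the _a_at kind, made for variants of 1 gene. Leaving out shared kinds thus turned H2-Ab1 from 0.38 to the bound of -1.36, and its direction is not settled.

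Cd74, the invariant chain that escorts class II molecules to the endosome, read 759 in the Ad-control pool and 643 in the Ad-PDK4 pool on its single probe set (-0.22). Of the 500 probe sets closest in signal, 53.8% lay at least as far from 0. Ciita, the master activator of class II transcription, gave 49.3 against 45.8, 45.2 against 63.2 and 16.7 against 6.0 on its 3 probe sets. All lay under both floors, and Ciita has no measured difference in either direction.

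H2-Ea, a class II gene that C57BL/6 mice do not transcribe because of a promoter deletion, served as a check of how far background reaches. Its 3 probe sets gave 128, 72.4 and 28.8 in the Ad-control pool, against 35.6, 5.7 and 46.1 in the Ad-PDK4 pool. A gene that should give no transcript thus read up to 128, above the floor. Of the 33 probe sets of the 10 genes, 11 lay at or below that signal on both arrays, 2 of them above the floor on at least 1 array, and 20 lay above it on both. The H2-Ab1 probe set that passed 1.5-fold was above it on the Ad-control array only. Set against the floor in the same way, H2-Ea itself came out at least 1.27-fold lower in the Ad-PDK4 pool, although it should be absent from both. Bounds of dim genes, here and below, are therefore distances from the floor and not firm minimum differences.

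Across the 5 genes with several measured probe sets, 3 (H2-D1, H2-K1 and Tapbp) had values on both sides of 0, while B2m and H2-Aa did not. Over all 4326 such genes, 50.6% had probe sets on both sides. Of the 33 probe sets, 18 were of the _x_at or _s_at kind, among them all of H2-K1 and H2-Aa, which have no value without them.

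**Figure D3:**
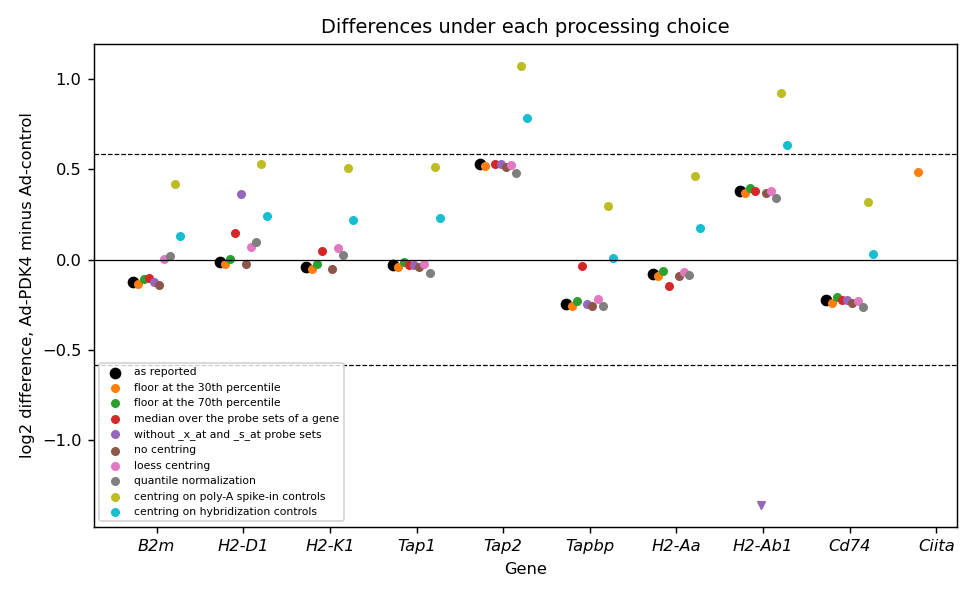
Log2 difference (Ad-PDK4 minus Ad-control) of each gene as reported (black) and under 9 other processing choices (colours); the triangle is a bound and dashed lines mark 1.5-fold. The spike-in and hybridization centrings raise all genes together, and the lone low point is H2-Ab1 without shared probe sets (-1.36).

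Other genes of the pathway came from lists chosen with earlier results of these data known. Of the 10389 named genes measured on both arrays, 85.6% were within 1.5-fold, 9.21% were higher and 5.20% lower, and the shares within 1.5-fold in the lists of 11 or more genes below were near the first of these. Of 7 measured class I relatives, 1 passed 1.5-fold in each direction, and the median was -0.15. Mr1, which presents vitamin metabolites, had 121 and 193 (0.68), but its other probe set gave 0.021. H2-M3, which presents formylated peptides, gave 0.076. H2-Bl was lowest, with 207.5 against 136 (-0.60), followed by Cd1d1, which presents lipids, with -0.22. H2-Q10 gave 29262 and 25223, a difference of -0.20.

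In the list for class I peptide supply and loading, 13 of 14 genes were within 1.5-fold, beside 85.6% of all genes, with a median of 0.0059. The aminopeptidase Erap1, which trims peptides in the endoplasmic reticulum, differed by 0.35, and Pdia3, a disulfide isomerase of the loading complex, by 0.27. The protease gene Sppl2a was lowest, with 6252 against 4026 (-0.62, 1.54-fold lower), and Psmb9 was next. Sppl2a is known for cleaving the remnant of the invariant chain, which is part of the class II pathway, although it was listed here with class I. Its 3 measured probe sets ranged from -0.62 to -0.10, all below 0.

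Of 11 class II chains and loading genes measured on both arrays, 10 were within 1.5-fold, beside 85.6% of all genes, and the median was -0.057. Ifi30, a thiol reductase of the endosome, was 1.66-fold higher, with 1359 against 2230 on its single probe set. Ctss, the cathepsin that trims the invariant chain, followed with 0.26. Lgmn, an endosomal protease, was lowest with -0.21, and Ctsl gave -0.18. H2-Eb2 was under the floor on the Ad-control array, with 14.5 against 148, and at least 1.60-fold higher by its bound. That bound is set against the floor, and 148 is near the 128 that H2-Ea reached.

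Of 20 MHC regulators, 19 were within 1.5-fold and 1 was higher, beside 85.6% and 9.21% of all genes, with a median of -0.095. That 1 was Spi1, the PU.1 factor of myeloid and B cells, with 94.0 against 156 (0.75), at signals near the floor. Nfyc differed by 0.44 and Nfyb by -0.56; both encode subunits of the factor that binds the Y box, and the other Nfyb probe set gave 0.13. Creb1, whose product can bind the X2 box, gave -0.42, with probe sets up to 0.36. Nlrc5, the class I counterpart of Ciita, had 850 and 688 (-0.29).

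Genes induced by interferon gamma, the cytokine best known for raising both MHC classes, had a median of 0.072 over 11 genes, 10 of them within 1.5-fold, beside 85.6% of all genes. Cxcl10, a chemokine for T cells, was 1.57-fold higher (147 against 228), and Gbp3, a guanylate-binding protein, gave 0.39. Icam1 (-0.21) and Irgm2 (-0.16) were lowest. Of the costimulation genes only 3 were measured on both arrays: Cd48 at 0.25, Cd86 at 0.088 and Vcam1 at -0.27, with another Vcam1 probe set at -1.34. Icosl, a ligand for T cells, was at least 1.81-fold higher by its bound (77.5 against 167), and Cd80 and Cd40 were under the floor on both arrays.

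**Figure D4:**
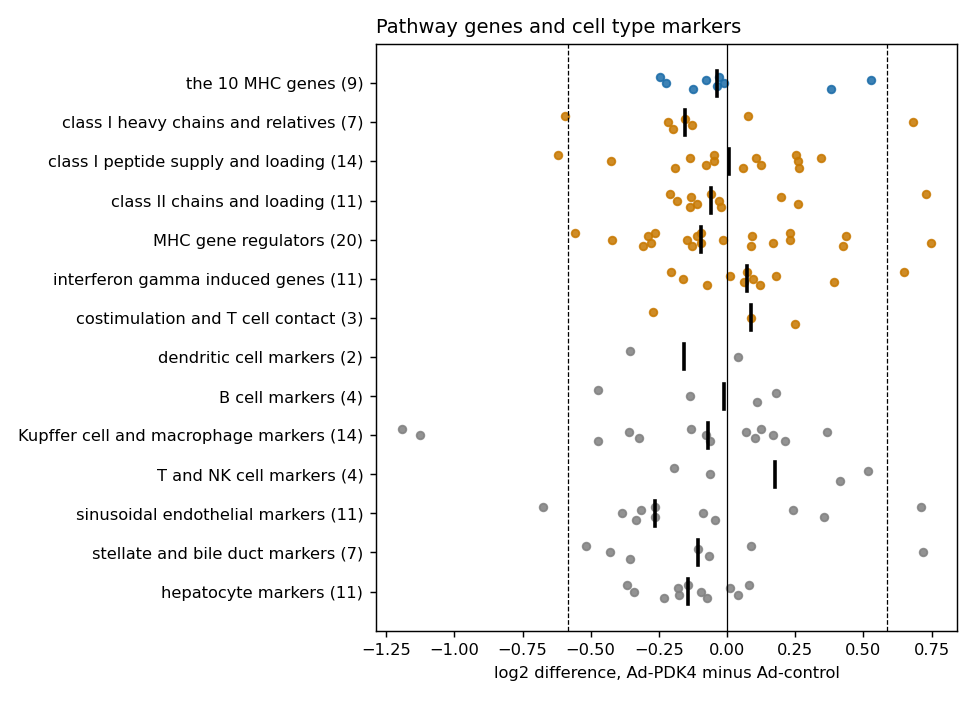
Log2 difference (Ad-PDK4 minus Ad-control) of genes above the floor on both arrays, with the number of genes in brackets: the MHC genes (blue), other pathway genes (orange) and cell type markers (grey). Black bars are medians and dashed lines mark 1.5-fold; at most 2 genes of a list lie outside the lines, the lowest being the Kupffer cell markers Vsig4 (-1.19) and Clec4f (-1.13), and pancreas markers are not drawn.

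Markers of the cells that carry class II molecules were mixed, and their part in the class II values was not tested. Of 14 Kupffer cell and macrophage markers measured on both arrays, 2 were at least 1.5-fold lower and none (0) higher, beside 5.20% and 9.21% of all genes. The 2 were Vsig4, a complement receptor of resident macrophages (567 against 246, 2.28-fold lower), and Clec4f, a Kupffer cell lectin (278 against 126, 2.18-fold lower). The others lay on both sides of 0, with Cd163 at -0.47, Lyz2 at -0.36 and Mrc1 at -0.32, and with Cd5l at 0.10, Adgre1 at 0.21 and Cd68, the highest, at 0.37. In all, 8 of the 14 lay below 0, and Marco was at least 1.40-fold lower by its bound. The list median was -0.069, its summed signal was 15678 in the Ad-control pool and 13967.5 in the Ad-PDK4 pool, and only Timd4 was under the floor on both.

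Of 12 matched dendritic cell markers, 2 were above the floor on both arrays (Bst2 at 0.041 and Fscn1 at -0.36), and neither is confined to that cell type. The others included Itgax, at least 1.56-fold higher, and Zbtb46, at least 1.70-fold lower, each by its bound, and Xcr1, Ccr7 and Clec10a were under the floor on both arrays. The summed signals were 5017 and 4772, most of it from Bst2 (3668 and 3735) and Fscn1 (583 and 451), so they say little about dendritic cells. B cell markers had 4 of 10 measured on both arrays, from Cd79b (-0.47) to Ighm (0.18), with none (0) past 1.5-fold, summed signals of 1481 and 1439, and 3 (Cd79a, Cr2 and Fcer2a) under both floors.

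Sinusoidal endothelial markers had a median of -0.26 over 11 genes, 8 below 0 and 3 above, beside 5031 below and 5358 above among all genes. Cdh5, the endothelial cadherin, was lowest at -0.68. Pecam1, an adhesion protein, was highest at 0.71, from an Ad-control signal of 119, under the 128 that H2-Ea reached. The summed signals of these markers were 18631 and 16290, with the largest parts from Fcgr2b (5632 and 4643.5) and Clec4g (5372 and 5006.5). T and NK cell markers had 4 genes measured on both arrays, from Prf1 (-0.19) to Klrd1 (0.52), and Gzma was at least 1.51-fold lower by its bound. Their summed signals, genes under the floors included, were 1385 and 1504, and 9 of 15, including Cd3e and Cd4, were under both floors. Stellate and bile duct markers ran from Epcam (-0.52) to Des (0.72), with summed signals of 8189 and 7106. Hepatocyte markers, which check the labelled tissue, had signals of at least 7899 on both arrays in 10 of 11 cases, the other being Ass1 (314 and 275), and 11 of 11 were within 1.5-fold, from Asgr1 (-0.37) to Alb (0.079).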

How the data were processed

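Liver RNA of each group was pooled and hybridized to 1 Affymetrix array, per the labels. The deposited signal intensity is linear, with 1 value per probe set. The summary method was not given in the sources used here. As deposited, the mean is 500 on both arrays once 2% of probe sets are trimmed at each end. Symbols came from the platform annotation, checked through Entrez identifiers against RefSeq (GRCm38.p6), with 0 changed. Probe sets with several symbols (932) were not named, and 64 control probe sets were set aside. Values were taken to log2, the 50th percentile of each array served as a floor, and differences were centred (shift -0.015). A gene was represented by its brightest probe set, or, where that was under the floor on both arrays, by its brightest measured one. A bound sets the brighter signal against the other floor. The summed signal of a list runs over all its matched genes, those under the floors included.

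With 1 array per group no test was run, and the number of arrays limits the precision. The genes and lists were chosen with earlier results of these data known. The text names all members, and of each list the extremes and the genes past 1.5-fold, except that of the pancreas markers, all past it, the extremes alone are named. Coordinates are given only for the printed RefSeq sequences, with their build, since the array table names none. Calculations were tested on simulated data (Python 3.11.15, pandas 2.3.3). In all, 9 other processing choices were tried.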

Additional observations from a re-analysis of the deposited data

How the results depend on the processing

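Under 9 other choices (floors at the 30th and 70th percentiles, the median over probe sets, no _x_at or _s_at probe sets, no centring, loess, quantile normalization and centring on poly-A or hybridization controls), the count of genes at least 1.5-fold higher stayed at 0 except for 2 (Tap2 and H2-Ab1) with the poly-A controls and 2 (the same genes) with the hybridization controls. With these 2 centrings, 47.9% and 23.4% of all genes above the floor on at least 1 array passed 1.5-fold upwards, so those counts do not set the 2 genes apart. The count at least 1.5-fold lower stayed at 0 except for 1 (H2-Ab1, by its bound) without shared probe sets, beside 5.58% of all such genes in that setting. The median of the measured genes was -0.038 as reported and 0.50 with the poly-A controls, where all genes had a median of 0.56. It lay between -0.076 and 0.22 under the others, in which it was above 0 with loess (0.0050), quantile normalization (0.022) and hybridization controls (0.22). The split of 7 genes below 0 and 2 above became 4 below and 5 above with loess and with quantile normalization. With the median over probe sets it was 5 below and 4 above. H2-K1 and H2-Aa have no value without shared probe sets, and Tap2 none with the floor at the 70th percentile. Ciita had one (0.48) only with the floor at the 30th. No paired analysis was possible because each group is 1 array, and no replicate could be left out. Dim signals limit the values of Tap2, Ciita, H2-Ab1 and the dimmer H2-D1 probe sets.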

Other observations

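Outside the lists, the class I gene H2-Q5 had 1 probe set at 567 in the Ad-control pool against 1216 in the Ad-PDK4 pool (log2 difference 1.12) and another at 5.8 and 5.5, under both floors. The probe set shared by H2-Q5 and H2-K1 went the other way, with 161 against 25.5 and a bound of -0.67. An _x_at probe set of the class I relative H2-T3 gave 101 against 190 (0.93), while another of the same gene was under both floors. The signal of 101 is close to the floor of 93.4 and below the 128 that H2-Ea reached. A probe set shared by H2-T3 and H2-T18 gave 102 against 59.8, with a bound of -0.013. These were chosen after their values were seen. Altogether 15 probe sets, the shared ones above included, list several genes with at least 1 symbol of the H2 series and cannot be assigned to any. Of these, 6 were above the floor on both arrays, with signals from 219.5 to 10862 and differences from -0.40 to 0.34, 4 of them above 0 and 2 below. Another 3 were above the floor on the Ad-control array alone, with bounds of -0.67, -0.58 and -0.013, and 6 were under both floors.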
